A study of Homo sapiens with 4 samples.

Results

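Binding of p53 was examined at the death receptor gene FAS and at the 4 genes of the TNFRSF10 family (TNFRSF10A, TNFRSF10B, TNFRSF10C and TNFRSF10D). These 5 genes were chosen by name among 20163 annotated protein-coding genes, and a peak was given to a gene when its summit lay in the gene body or within 25 kb of it. By this rule the 5 genes held 10 peaks in 4 peak lists. They held 2 of the 488 peaks of WT p53 in untreated cells, 5 of the 4326 peaks of WT p53 after tetracycline (Tet), 0 of the 12 peaks of K120R p53 in untreated cells and 3 of the 2023 peaks of K120R p53 after Tet. No peak was in reach of more than 1 of the 5 genes, so the choice of the nearest gene start was never needed. All coordinates are those of GRCh37.

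H1299, a lung cancer line of human origin without p53 of its own, was used for ChIP-seq, which sequences the DNA that an antibody brings down with its protein. All 4 conditions shared expression of the Tet repressor and the same p53 antibody. WT and K120R p53 were introduced by lentivirus in stable lines of their own, so the form of p53 and the line cannot be told apart. The conditions were WT p53 and K120R p53, in which arginine replaces Lys120, each without treatment and after 24 h of Tet, with 1 library per condition. As there was no replicate, no p-value was computed, and intervals cover counting error only. Peak lists do not measure RNA, so neither the identity of the cells nor the expression of the receptors could be checked here.

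Death receptors sit on the cell surface and start apoptosis when their ligand binds. FAS is the receptor of FAS ligand, and TNFRSF10A and TNFRSF10B are receptors of TRAIL, the product of TNFSF10. Their death domains recruit the adaptor FADD, which in turn activates CASP8. TNFRSF10C lacks a death domain and TNFRSF10D has a truncated one, and both are known as decoy receptors that bind TRAIL without passing on a death signal. p53 recognises a response element (RE) made of a pair of 10-bp half-sites, each with a CWWG core (W is A or T) between flanking purines and pyrimidines. FAS and the TNFRSF10 genes are textbook targets of p53, and the REs known for them lie near the start of the gene.

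The FAS RE is shown because it is the RE that the study lists for this gene and the best match to the consensus under the FAS peaks. It lies at chr10:90751066-90751085 on the plus strand of GRCh37, and the reference reads exactly as listed. Capitals mark the core positions. The other sequence is the best match found within 100 bp of the K120R summit in FAS, at chr10:90750825-90750844, and it is shown because the FAS RE lies outside that window.
FAS RE: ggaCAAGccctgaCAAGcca
best match at the K120R summit: gggGCTGttaggaCCTTccc
Both cores of the FAS RE match the consensus. Its 2 mismatches are at positions 11 and 20, counted from 1 at the 5′ end, and it has G/C bps at positions 8 and 18 among positions 3, 8, 13 and 18, which lie just outside the cores. The match near the K120R summit has 5 mismatches, 4 of them in the cores. Within 100 bp of the summit, 53.2% of WT peaks after Tet had a match with at most 2 mismatches, as FAS did, and 80.4% one with at most 3.

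The depth of the libraries was similar, with 33059650 to 34857204 ChIP tags. MACS, the peak caller, set the fragment length to 170 bp in the Tet-treated WT library. In the others it was 64 to 68 bp, which is shorter than the 75-bp reads. More fragments cover a summit when this length is greater, so values were read within each list and set side by side between lists. Fold enrichment is the pileup over the summit relative to the local background from the input, each with 1 added. The pileup is the number of fragments after MACS had brought both libraries to equal depth, and fragments are given before this scaling. The lowest number of fragments at a called peak was 12 for WT p53 after Tet, 8 for K120R p53 after Tet, 7 for WT p53 in untreated cells and 16, among only 12 peaks, for K120R p53 in untreated cells. A gene without a peak is therefore one where nothing was called, which does not show that p53 was absent.

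After Tet, WT p53 had a peak at FAS, TNFRSF10A, TNFRSF10B and TNFRSF10D, that is at 4 of the 5 genes, whereas 19.1% of all protein-coding genes had one by the same rule. K120R p53 had a peak at 3 of the 5 (FAS, TNFRSF10A and TNFRSF10B), against 9.46% of all genes. WT p53 in untreated cells had a peak at FAS and TNFRSF10B, against 2.59% of all genes, and K120R p53 in untreated cells had none, against 0.0347%. The genes are known p53 targets and were named with earlier results in view, so these counts describe them and were not tested. With a 50-kb window the number of peaks did not change, because the nearest other peak of any list was 226 kb away from its gene. The peak farthest from a gene that the 25-kb rule still took in lay 5.56 kb beyond the 3′ end of TNFRSF10B.

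**Figure D1:**
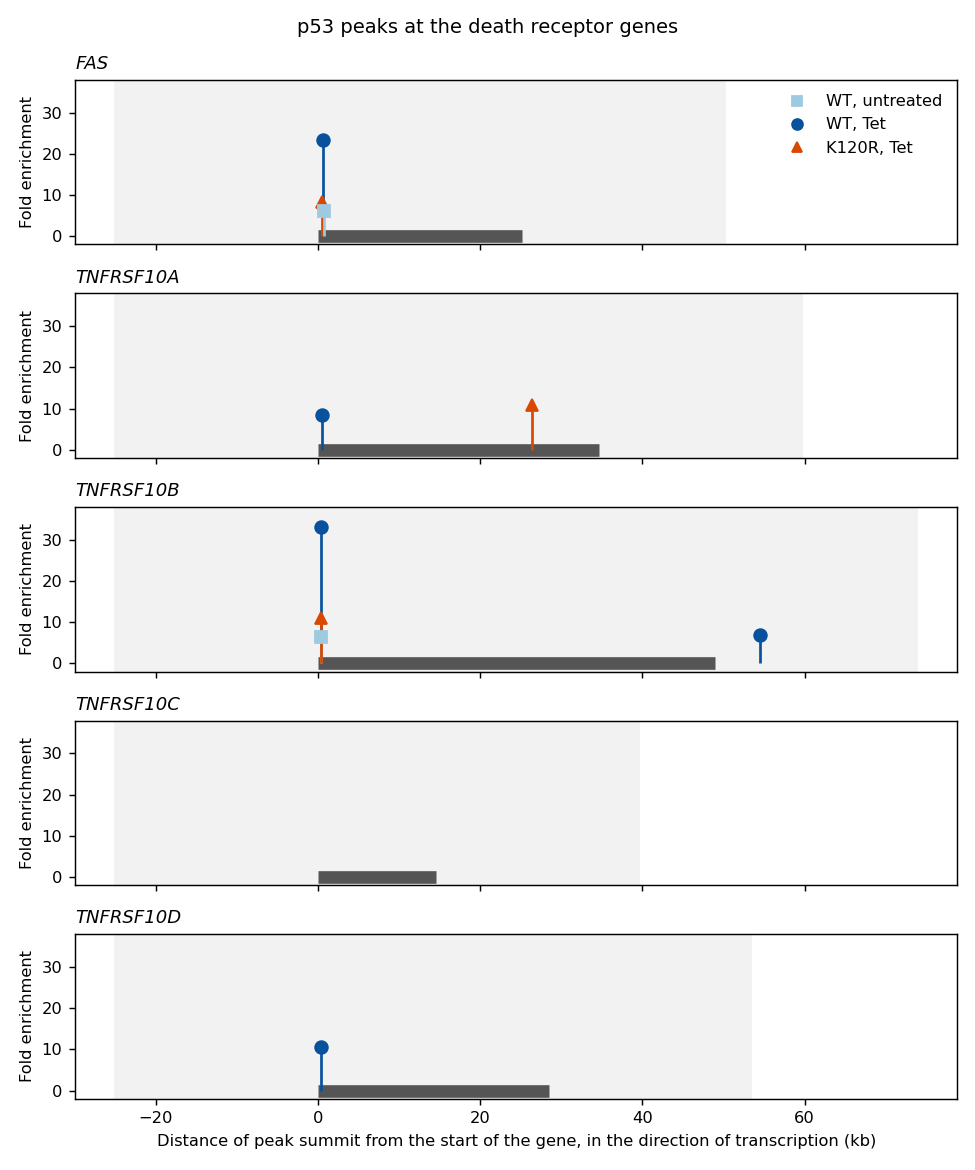
Fold enrichment of every peak (vertical axis) against the distance of its summit from the start of the gene in kb (horizontal axis), for each of the 5 genes. Dark bars are gene bodies, grey areas are the 25-kb windows, and symbols stand for the library; FAS and TNFRSF10B have both a WT and a K120R peak near their start, and TNFRSF10C has no peak.

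FAS had the same site occupied in 3 of the 4 libraries. The gene spans chr10:90750414-90775542 on the plus strand, and the WT summit after Tet lay 622 bp downstream of its start, at 90751036. This position is in an intron of 4 coding FAS transcripts and in an exon of 1 non-coding one. On the opposite strand it falls in the UTR of 2 transcripts of ACTA2, which encodes a smooth muscle actin, and in a long non-coding RNA gene, so the peak is not placed in FAS alone.

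At FAS, WT p53 after Tet had 119 fragments over the summit (exact Poisson 95% interval 98.6 to 142) on a local background of 4.00, a fold enrichment of 23.3. WT p53 in untreated cells had 15 fragments (8.40 to 24.7) on a background of 1.61, a fold enrichment of 6.14. K120R p53 after Tet had 20 fragments (12.2 to 30.9) on a background of 1.36, a fold enrichment of 8.34. The untreated K120R library had no peak there. Within its own list, the WT peak after Tet ranked 339 of 4326, the untreated WT peak 319 of 488 and the K120R peak 607 of 2023. These places correspond to the highest 7.84% of the WT list after Tet, the highest 30.0% of the K120R list and the highest 65.4% of the untreated WT list.

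The summits at FAS did not coincide. The centre of the RE was 39.5 bp from the WT summit after Tet, 36.5 bp from the untreated WT summit and 175 bp from the K120R summit. The K120R peak (chr10:90750782-90751254) still covered the RE, but its summit was displaced by 135 bp from the WT summit after Tet. Among the 1092 WT peaks that overlapped a K120R peak, the median displacement was 32 bp, and 5.22% were displaced by at least as much as FAS. The lists differ in fragment length, and its part in the displacement was not tested.

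TNFRSF10B, a TRAIL receptor with a death domain, had the strongest of all peaks at these genes. The gene spans chr8:22877646-22926544 on the minus strand. Its 5′ site, with the WT summit after Tet at 22926172, lay 372 bp downstream of the start in an intron of 2 coding transcripts, and also in an intron of a non-coding gene on the other strand. There WT p53 after Tet had 132 fragments (110 to 157) on a background of 2.89, a fold enrichment of 33.1 that ranked 158 of 4326.

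In untreated cells, the 5′ site of TNFRSF10B had 21 fragments of WT p53 (13 to 32.1) on a background of 2.41, a fold enrichment of 6.45. K120R p53 after Tet had 27 fragments (17.8 to 39.3) on a background of 1.36, a fold enrichment of 11.1. These ranked 303 of 488 and 272 of 2023 in their lists. The site was therefore called in the same 3 libraries as FAS. Unlike at FAS, the K120R summit was only 10 bp from the WT summit after Tet. The WT intervals of FAS and TNFRSF10B overlapped, so within the Tet-treated WT library their fragment numbers did not differ beyond counting error.

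The study lists an RE in this peak, 20 bp from 22926135 to 22926154, but under LOC286059 and with no function, and none of the listed REs used here is under TNFRSF10B. Of the 1356 listed REs used here, 1 is listed for any of the 5 genes, which is the FAS RE, whereas 3 lie in their WT peaks. The RE at TNFRSF10B was also the best match in the reference, with 2 mismatches, 0 of them in the cores, and 2 G/C bps beside the cores. Its centre was 27.5 bp from the WT summit after Tet and 17.5 bp from the K120R summit.

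The third listed RE belongs to a weak WT peak (chr8:22871984-22872294) beyond the 3′ end of TNFRSF10B. This peak lies in an intron of RHOBTB2, the gene under which its RE is listed, and had 23 fragments (14.6 to 34.5) and a fold enrichment of 6.89, rank 2465 of 4326. It was called with WT p53 after Tet and in no other library. The RE had 3 mismatches, 2 of them in the cores, and lay 3.50 bp from the summit.

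TNFRSF10A, the other TRAIL receptor with a death domain, had WT and K120R peaks at different places. It spans chr8:23047965-23082615 on the minus strand. At its 5′ site, 453 bp downstream of the start, WT p53 after Tet had 43 fragments (31.1 to 57.9) on a background of 4.00, a fold enrichment of 8.53 and rank 1868 of 4326. No other library had a peak there. The interval lay below those of FAS and the 5′ site of TNFRSF10B in the same library and overlapped that of the 3′ flank of TNFRSF10B. The summit, at 23082162, falls in an intron of 2 TNFRSF10A transcripts and in an exon of TNFRSF10A-DT, a divergent non-coding gene.

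The K120R peak of TNFRSF10A lay 26406 bp downstream of the start, at chr8:23056101-23056435, in an intron. It had 22 fragments (13.8 to 33.3) on a background of 1.00, a fold enrichment of 10.8 and rank 296 of 2023. By pileup it ranked 480, whereas the K120R peak of TNFRSF10B ranked 272 by fold enrichment and 290 by pileup. WT p53 had no peak there with or without Tet. Of all K120R peaks after Tet, 43.2% overlapped no WT peak, and among these 873 this peak ranked 60 by fold enrichment. Its best match to the RE had 4 mismatches, and 63.0% of the 873 peaks had at least 4.

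This K120R peak of TNFRSF10A covers a run of 69 bp in which purines and pyrimidines alternate. A run at least as long was present in 26 of the 873 K120R peaks without a WT peak (2.98%), in 0.0870% of K120R peaks with one and in 0.0618% of WT peaks without a K120R peak. The word acatgcac itself alternates purines and pyrimidines, so it is not a trait separate from such a run. Searched on both strands within 75 bp of the summit, it was present here. It was found in 33.2% of the 873 peaks, in 6.61% of K120R peaks with a WT peak and in 3.15% of WT peaks without a K120R peak. At the other sites of the 5 genes the longest such run was 6 to 9 bp and the word was absent. These are descriptions of the reference at the peak. The word was taken from earlier results of these data and the length of 69 bp from this site, so the shares are not independent support.

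**Figure D2:**
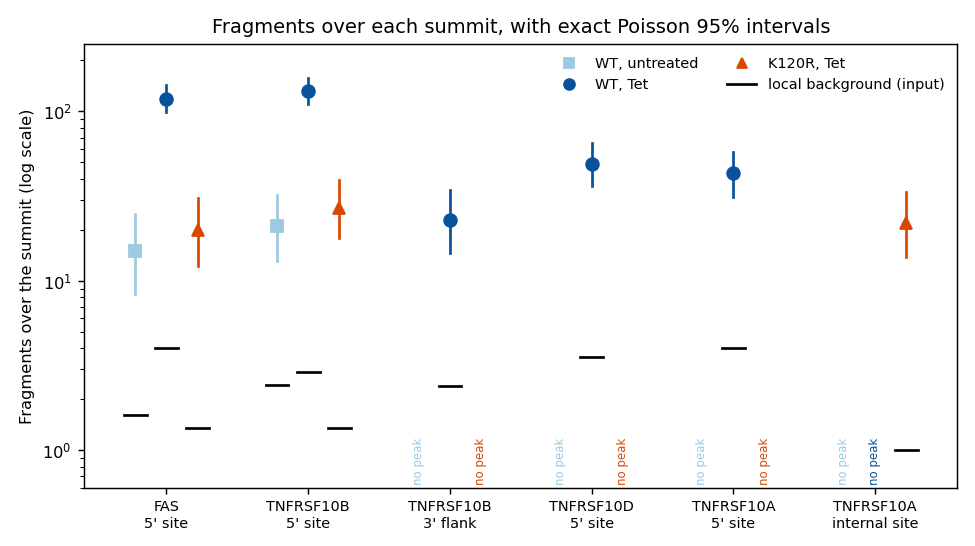
Fragments over the summit (vertical axis, log scale) at each of the 6 sites (horizontal axis), with symbols for the library, exact Poisson 95% intervals as bars and the local background as black lines. WT p53 after Tet had 119 and 132 fragments at the 5′ sites of FAS and TNFRSF10B and 23 to 49 at its other sites, and "no peak" marks libraries without a call.

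TNFRSF10D, a decoy receptor, had a WT peak after Tet and no other. The gene spans chr8:22993101-23021540 on the minus strand, and the summit at 23021169 lay 371 bp downstream of its start in an intron. The peak had 49 fragments (36.3 to 64.8) on a background of 3.57, a fold enrichment of 10.6 and rank 1373 of 4326. Its interval overlapped that of the 5′ site of TNFRSF10A, lay below those of FAS and the 5′ site of TNFRSF10B, and lay above that of the 3′ flank of TNFRSF10B. The best match to the RE under it, from 23021170 to 23021189, had 3 mismatches, 1 of them in a core, and is not a listed RE.

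TNFRSF10C, the other decoy receptor (chr8:22960434-22974958, plus strand), had no peak in any library. Its neighbours in the cluster, which spans 205 kb, had peaks on either side, and the 94.997 kb between the 5′ sites of TNFRSF10B and TNFRSF10D held none. Since only uniquely aligned reads were used and the TNFRSF10 genes are related in sequence, 75-base reads were checked for copies elsewhere in the genome. Of the possible reads over the first 1000 bp of TNFRSF10C, 100% occurred once in the reference. The share was also 100% over each of the 10 peaks, and 98.7 to 99.8% over the 5 gene bodies.

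Ordered by fold enrichment of WT p53 after Tet, the 5′ site of TNFRSF10B (33.1) came first, followed by FAS (23.3), TNFRSF10D (10.6), TNFRSF10A (8.53) and the 3′ flank of TNFRSF10B (6.89). By fragments over the summit, neighbours in this order had overlapping intervals except FAS and TNFRSF10D. Pileup and -log10 q gave the same order. A minimum -log10 q of 10 removed none of the WT peaks after Tet and none of the K120R peaks, while the untreated WT peaks at FAS and TNFRSF10B had -log10 q values of 5.95 and 8.77 and were lost.

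**Figure D3:**
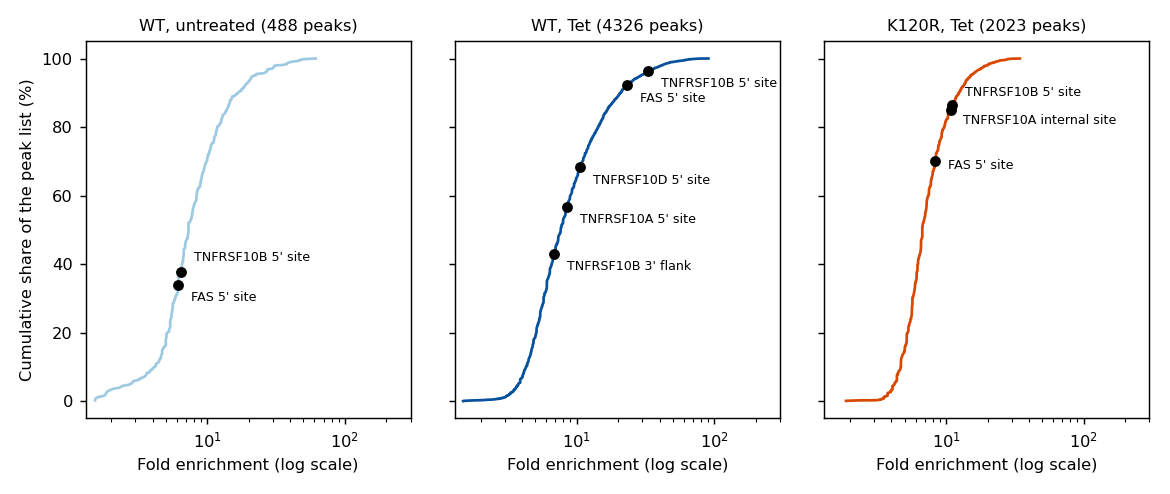
Cumulative share of each peak list (vertical axis, %) against fold enrichment (horizontal axis, log scale) for WT p53 in untreated cells, WT p53 after Tet and K120R p53 after Tet, with the death receptor sites as black points. By fold enrichment, FAS and TNFRSF10B are below the middle of the untreated WT list and near the top of the WT list after Tet, but by pileup TNFRSF10B is in the highest 36.1% of the untreated list. These lists hold 488 and 4326 peaks, so places in them are not on a common scale.

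In the untreated WT list, FAS and TNFRSF10B had a higher fold enrichment than 33.8 and 37.7% of peaks, and after Tet than 92.1 and 96.3%. These shares are of lists of 488 and 4326 peaks, so they are not on a common scale. By rank, FAS was 319 in the untreated list and 339 after Tet, and TNFRSF10B was 303 and 158. The place of TNFRSF10B in the untreated list turned with the measure, from the highest 62.1% by fold enrichment to the highest 36.1% by pileup and 49.6% by -log10 q. A peak in untreated cells was found at 2 of the 5 WT sites of Tet-treated cells, where 9.27% of all WT peaks had one. Both sites were in the highest quartile of WT fold enrichment, in which 33.0% of peaks had one, and the other 3 sites were in quartiles with 0.555 and 3.02% (0.544% in the lowest). Of the WT peaks of untreated cells, 84.8% overlapped a WT peak after Tet, as both of these did. The ratio of WT fold enrichment after Tet to that in untreated cells was 3.79 at FAS and 5.14 at TNFRSF10B. Over the 401 WT peaks with a peak in both lists, the median of this ratio was 3.08 (quartiles 2.15 and 4.13). Since the fragment lengths of the lists differ, only the place of a site among these ratios can be read, and FAS lay inside the quartiles and TNFRSF10B above them.

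A K120R peak was present at the 5′ sites of FAS and TNFRSF10B, that is at 2 of the 5 WT sites, while 25.2% of all WT peaks after Tet had one. In the highest quartile of WT fold enrichment, which held both, the share was 50.9%. It was 25% in the quartile of TNFRSF10A and TNFRSF10D, 14.4% in that of the 3′ flank of TNFRSF10B and 11% in the lowest. The fragment length was 170 bp in the WT list and 68 bp in the K120R list. Its part in which WT sites had a K120R call was not tested, and a missing call does not show absence. The ratio of WT to K120R fold enrichment was 2.79 at FAS and 2.98 at TNFRSF10B, and only the place of a site among such ratios can be read. The median over the 1092 shared peaks was 1.65 (quartiles 1.04 and 2.60), and over the 550 of them in the highest WT quartile it was 2.56 (1.86 and 3.58). Compared with shared peaks of similar WT fold enrichment, both sites therefore lay inside the quartiles. FAS and TNFRSF10B were thus called with WT p53 in both states and with K120R p53, as were 5.85% of WT peaks. Across all WT peaks, those with a peak in untreated cells had a K120R peak in 63.1% of cases and those without one in 21.4%.

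**Figure D4:**
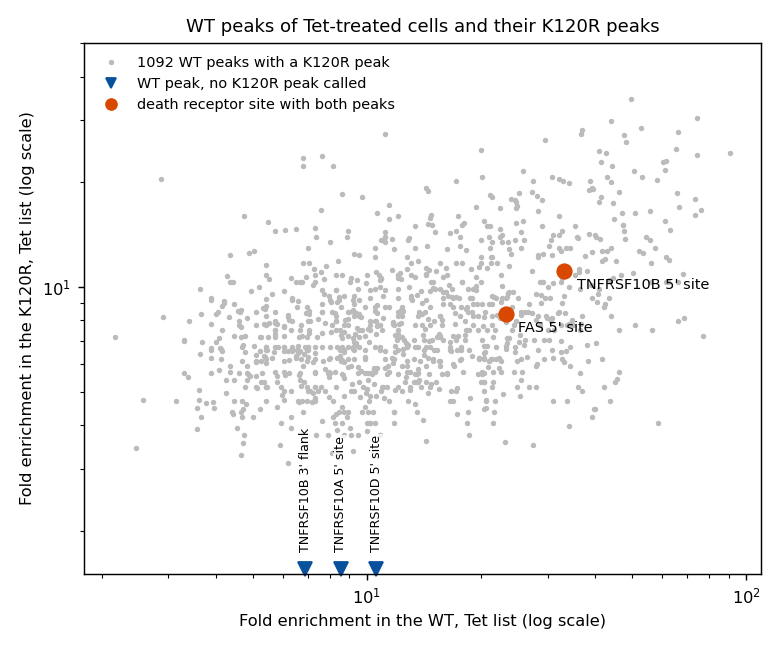
Fold enrichment in the K120R list against that in the WT list after Tet (both axes log scale) for the 1092 WT peaks with a K120R peak (grey), with FAS and TNFRSF10B in orange. Blue triangles on the horizontal axis mark the 3 WT sites without a K120R peak, which had WT fold enrichments of 6.89 to 10.6.

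The study relates binding of K120R p53 to how many of the 4 positions beside the cores of an RE (3, 8, 13 and 18) hold a G/C bp. It did so over its listed REs, and it reports that most REs at genes of positive regulation of apoptosis were not bound by K120R p53. The FAS RE is listed under that function. Here the best match under every WT peak was used, and K120R binding was read from overlapping called peaks, so the shares are not those of the study. All 5 WT sites at the death receptor genes had 2 G/C bps, a number found under 34.9% of WT peaks. The sites with a K120R peak (FAS and TNFRSF10B) therefore did not differ in this number from those without (TNFRSF10A, TNFRSF10D and the 3′ flank of TNFRSF10B). In the search around the WT summits they had fewer mismatches, with 2 against 3 or 4, and 0 core mismatches against 1 or 2. For FAS this does not hold around the K120R summit, where the best match within 100 bp had 5 mismatches, 4 of them in the cores. The order of the mismatches depended on the search, since with a spacer allowed between the half-sites TNFRSF10A and TNFRSF10D also reached 2 mismatches, both in the cores. Across all WT peaks with 2 G/C bps, 18.4% had a K120R peak, with 19.4% of those with 0 to 3 mismatches and 13.5% of those with 4 or more. Among those in the highest quartile of WT fold enrichment it was 41.6% of 411, in the third quartile 14.4% of 381, and in the second quartile 9.38% of 352. A site without a K120R peak is one where none was called. The part of the different fragment lengths in these calls was not tested.

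A site was named a 5′ site when its summit lay in the gene body within 1000 bp of the start. A place near the start therefore follows from the name, and the REs known for these genes lie there. The sites in the 3′ flank of TNFRSF10B and inside TNFRSF10A lay elsewhere. The shares below are given as background and were not tested. In FAS, TNFRSF10A, TNFRSF10B and TNFRSF10D, the WT summit lay between 371 and 622 bp downstream of the start of the gene. A WT summit within the first 1000 bp was found for 0.541% of protein-coding genes, and 2.38% of WT peaks had such a place. Among these 103 peaks, TNFRSF10B ranked 4, FAS 11, TNFRSF10D 30 and TNFRSF10A 44 by fold enrichment. A K120R peak was present at 35.9% of the 103, and at 2 of these 4. The sequence within 150 bp of the summits was rich in G/C, with 66.4% at FAS, 71.4% at TNFRSF10B and 72.8% at both TNFRSF10D and TNFRSF10A. This was more than in 97.3 to 99.1% of all WT peaks, whose median was 45.8%. Among the 103 peaks the median was 65.4% (quartiles 58.0 and 71.3), so FAS was near their median and the 3 TNFRSF10 sites lay above the upper quartile.

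Within the TNFRSF10 family, the REs lie at equivalent places. When the first 1000 bp of the 4 genes were aligned in pairs, 69.0 to 75.8% of aligned bases were identical. The RE of TNFRSF10B, 390 bp from the start, aligned without a gap to the best match under the TNFRSF10D peak (351 bp from the start) and to that under the TNFRSF10A peak (455 bp), and 18 of 20 bases were identical in each case. TNFRSF10C has a copy of this element as well, at chr8:22960802-22960821 and 368 bp from its start. It shared 19 of 20 bases with the RE of TNFRSF10B, 19 with that of TNFRSF10D and 19 with that of TNFRSF10A.

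The copy in TNFRSF10C had 3 mismatches to the consensus, 1 of them in a core, and 2 G/C bps. TNFRSF10D had the same numbers and a WT peak with a fold enrichment of 10.6, and TNFRSF10A had 4 mismatches and a peak with 8.53. The copy in TNFRSF10C had no peak in any library, and all reads over it are unique in the reference. In each of the 4 genes this element was also the best match within the first 1000 bp. A match with at most 2 mismatches in this window, as in FAS and TNFRSF10B, was found in 1.92% of protein-coding genes, one with at most 3 in 15.8% and one with at most 4 in 63.3%. A match describes the letters of the reference and does not show that p53 binds it.

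**Figure D5:**
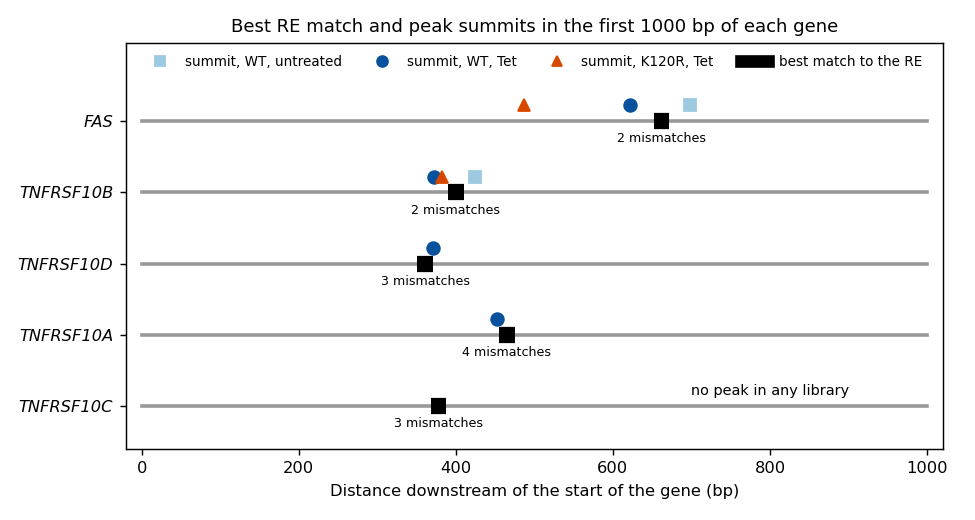
Peak summits (symbols, by library) and the best match to the RE (black boxes, with its number of mismatches) along the first 1000 bp downstream of the start of each gene (horizontal axis, bp). Summits lie near the match in the 4 genes with a WT peak, apart from the K120R summit at FAS, and TNFRSF10C has a match with 3 mismatches and no summit.

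Other genes of the extrinsic pathway were taken from a list of 29 ligands, adaptors, caspases, inhibitors and further receptors. WT p53 after Tet had a peak at 7 of them (24.1%), K120R p53 at 2 (6.90%) and untreated cells at 0 with either form. The shares over all protein-coding genes by the same rule were 19.1 and 9.46%, and the place of the list relative to them depended on the setting. Within 50 kb, 12 of the 29 genes had a WT peak against 26.9% of all genes, and with a minimum -log10 q of 10 it was 2 of the 29 (6.90%) against 13.8%. FADD and CASP8 were among the 22 genes without a peak of either form after Tet.

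The best matches within 100 bp of the 7 WT summits are shown for comparison with the FAS RE. Those of PIDD1, FAF1 and EDA2R are REs listed by the study, and the other 4 are matches alone. They have 1 mismatch (FAF1, EDA2R), 2 (CFLAR, TNFRSF6B), 3 (TNFRSF1A) or 4 (PIDD1, TNFSF10). They are read from the plus strand of GRCh37, and capitals mark the core positions.
PIDD1: agaCATGtcccagCACGcag
FAF1: gcaCTTGtctggaCTAGccc
EDA2R: ggaCACGtccaggCATGttc
CFLAR: cagCAGGtctgagCTTGtcc
TNFSF10: ctgCTCGcctggaCATGtca
TNFRSF1A: ggaCTTGtggtgaCATGcct
TNFRSF6B: gagCTGGcccgggCCTGtcc
The strong peaks were those of FAF1 and PIDD1. FAF1 encodes a protein that binds FAS, and its WT peak (chr1:51069220-51069627) had a fold enrichment of 21.3 and its K120R peak 12.2. It lies 356529 bp into this long gene, and its RE is listed by the study for DMRTA2. PIDD1 encodes a death domain protein induced by p53, with a fold enrichment of 20.4 for WT p53 (chr11:804168-804668) and 6.75 for K120R p53. The values of FAF1 and PIDD1 with WT p53 were near that of FAS.

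The other 5 genes had a WT peak alone, with fold enrichments from 3.64 to 5.58, all below the median of the WT list (7.64). EDA2R, the receptor of ectodysplasin A2, had 5.58, and its summit lay 662 bp downstream of the start, a place like that at FAS. CFLAR, an inhibitor of CASP8 activation, had 4.85, TNFSF10 (TRAIL) 4.53, TNFRSF1A (a receptor of TNF) 4.13 and TNFRSF6B (a decoy receptor of FAS ligand) 3.64. The peaks of TNFSF10 and TNFRSF6B lay upstream of the gene, at -13721 and -14537 bp from its start. With a minimum -log10 q of 10, FAF1 and PIDD1 were the genes of the list that kept a WT peak.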

How the data were processed

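p53 ChIP-seq of H1299 cells was analysed from the authors' peak lists, 1 per condition. Per the file headers and the study's methods, the authors aligned unique 75-bp reads to GRCh37/hg19 with BWA-MEM, kept 1 tag per position and called peaks against the input with MACS 2.1.1.20160309 at a q-value cutoff of 0.05. The deposited pileup is a signal, the fragments over the summit after the larger of ChIP and input was scaled to the smaller. The deposited fold enrichment is a ratio to the local background, and the authors' p and q values are on the -log10 scale. The deposited score of the narrow-peak lists, derived by the authors' software from -log10 q, was not used.

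Pileup divided by the scaling factor gave whole fragments at 100% of peaks (tolerance 0.02). The local background was recovered as the pileup plus 1, divided by the fold enrichment, minus 1. With it, a Poisson model gave the deposited -log10 p with a median difference of at most 0.0018 per list, where it could be computed. The narrow-peak lists held the same peaks. Genes came from GENCODE release 44 on GRCh37. The RE was searched as the best 20-bp match within 100 bp of a summit, overlap was at least 1 bp, and copies of reads were exact ones on either strand. On simulated data the search recovered all of 300 planted REs and the assignment all of 100 planted peaks. The planted REs matched the consensus fully and had no spacer, so recovery of REs with mismatches was not tested. Sequences of the chromosome 8 sites are not shown, and the study's cpm values were not used.

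The members, lists and windows were chosen with earlier results of these data known. Alternatives were other windows, thresholds, overlap rules and measures of peak strength. With 1 library per condition no test was run. Intervals are exact Poisson 95% intervals of fragments. Tools were pysam 0.24.0, Biopython 1.88, pandas 2.3.3 and matplotlib 3.10.9 under Python 3.11.15, with scipy 1.17.1 for intervals and numba 0.67.0 for read copies. Named genes were the 5 members, genes of the pathway list with a peak, and genes in whose body a member peak lies or under which its RE is listed.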

Additional observations from a re-analysis of the deposited data

How the results depend on the processing

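Of 146 alternative values, 117 stayed within the margin set for them and 29 moved. With -log10 q of at least 10, the genes held 0 untreated WT peaks, 0 WT sites after Tet had an untreated peak, and the share of all genes with a peak was 1.20% (WT) and 0.0198% (K120R) untreated and 3.52% for K120R p53 after Tet. The pathway list then had 2 genes with a WT peak (13.8% of all genes) and 1 with a K120R peak after Tet. Within 50 kb it had 12 (26.9% of all genes) and 4 (13.5%), and 1 with WT p53 in untreated cells (3.84%). Ranked by pileup instead of fold enrichment, the place from the top of the WT list after Tet was 6.84% for FAS, 5.15% for the 5′ site and 73.8% for the 3′ flank of TNFRSF10B, 29.3% for TNFRSF10D and 35.6% for TNFRSF10A. It was 57.0% for FAS and 36.1% for TNFRSF10B in the untreated WT list and 23.7% for TNFRSF10A in the K120R list. Ranked by -log10 q, it was 6.66% for FAS, 63.2% for the 3′ flank of TNFRSF10B, 29.8% for TNFRSF10D and 38% for TNFRSF10A after Tet, 49.6% for TNFRSF10B in the untreated WT list and 17.9% for TNFRSF10A in the K120R list. The cause of these moves was not tested. The best RE at the K120R summit of FAS had 3 mismatches with a spacer of up to 13 bp, 2 when the whole peak was searched and 2 for the listed RE, and with a spacer TNFRSF10D had 2 and TNFRSF10A 2. No paired analysis was possible because each condition has 1 library. Without replicates, neither biological nor technical spread is known, and differences between lists cannot be told apart from differences between libraries.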
